A study of Bos taurus with 64 samples.

Results

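*FOS*, *FOSL1*, *ATF3*, *GEM* and *DUSP1* are immediate early genes that the array names, and they were taken as every probe carrying one of these 5 gene names among the spots that are not controls. Each gene had 1 such probe, which gave 5 of the 13285 probes and 5 of the 5449 transcripts of the array. Their transcripts were measured in 32 Normand cull cows, of about 4.5 years of age, in the *longissimus thoracis* (LT, along the back) and in the *semitendinosus* (ST, in the hind leg). The 16 cows of the stress group (moderated stress in the labels) travelled to slaughter alone in a lorry and spent 30 minutes in a labyrinth on an unfamiliar farm, and the 16 cows of the limited stress group were handled calmly and travelled with a companion. All 32 cows were finished for about 101 days on straw and concentrate enriched in linseed and rapeseed lipids, and none was without these lipids. In each stress group 8 cows received this diet alone (control diet, lipid-rich in the labels) and 8 received it with vitamin E and plant extracts rich in polyphenols (EP diet, Lipid VitE PERP in the labels). The muscles were sampled within 15 minutes after slaughter, so every level is that of a slaughtered cow, and slaughter itself was common to both groups.

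Immediate early genes are transcribed within minutes of a signal, from transcription factors that the cell already holds, and their transcripts are short-lived. *FOS* and *FOSL1* encode FOS family proteins that pair with a JUN protein to form AP-1, a factor that binds DNA at its own short site. *ATF3* encodes a stress-inducible factor of the same basic leucine zipper class, which also pairs with JUN proteins. *DUSP1* encodes a phosphatase that switches off the MAP kinases, which themselves drive *FOS* transcription, and glucocorticoids are known to induce it. *GEM* encodes a small GTP-binding protein that lowers the activity of voltage-gated calcium channels. In skeletal muscle, such genes are known to respond to exercise, stretch and injury.

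The sequences that were measured are shown because they say which piece of each transcript a value stands for. Each probe is 60 bases long, and 30 bases of it are given 5′ to 3′ on the strand of the transcript. Capitals mark the bases that the probe shares, in 1 run, with a probe of a custom set of the same array, and lower case marks bases outside that run. The positions are those of the whole probe in the build HGSC Btau_3.1, as the array files give them. The exons and untranslated regions of this build were not analysed here.
FOS, chr10:88963194-88963253, plus strand, probe bases 1 to 30: CCTTGAGGTCTTTTGACATGTGGAAAGTGA
FOSL1, chr29:45905216-45905275, minus strand, probe bases 15 to 44: AGCTACAAGCCTCCACAGCGTGGGCAGCTG
ATF3, chr16:68874240-68874299, minus strand, probe bases 1 to 30: tctctggctactatctgtttaaattctgac
GEM, chr14:68390174-68390233, plus strand, probe bases 31 to 60: tgggttGACCGTTGTATGCCGCAGCTCTGC
DUSP1, chr20:4575922-4575981, minus strand, probe bases 16 to 45: TCCTAAGCAGGTTTGTTTTCAGCACTGGAA
The run shared with a custom probe was 60 bases for *FOS* (set Target678), 46 for *FOSL1* (Target677), 45 for *DUSP1* (Target545) and 24 for *GEM* (Target708). The custom sets had 5 probes each, and no custom set was matched to the *ATF3* probe. The files' transcript of 4 of the 5 genes was listed with the same symbol by RefSeq (assembly ARS-UCD2.0).

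A level is the log2 of the probe's signal over the signal at the 75th percentile of its array, so a level of 0 is the signal of that percentile and a step of 1 is a doubling. The 75th percentile ranged from 2470 to 4202 units over the 64 arrays, and 71.4% to 80.9% of the spots were well above background. All 11 markers of the muscle fibre that the array names, such as *ACTA1*, *CKM* and *MYH7*, were well above background on all 64 arrays. The arrays lay on 4 slides for the LT and 5 for the ST. On 1 ST slide, 6 of the 7 arrays were of stressed cows, 5 on the control diet and 1 on the EP diet, and the other was of a limited stress cow on the EP diet.

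*FOS*, *ATF3*, *GEM* and *DUSP1*, which were well above background on all 64 arrays, rose with stress in both muscles. In the LT, 2.20% of the 4311 tested transcripts rose (limma's moderated test, adjusted p under 0.1), and in the ST, 1.48% of the 4246 tested transcripts did. *FOSL1* also passed the test in both muscles, but it had entered the test only through the stressed cows, since few arrays of limited stress cows had it well above background, and so its call adds no support to a count of the genes. The steps of *FOS* and *ATF3* were between 2.48-fold and 3.85-fold, those of *GEM* were smaller, at 1.94-fold in the LT and 1.62-fold in the ST, and those of *DUSP1* were 1.26-fold and 1.30-fold. The median log2 fold change over all tested transcripts was -0.05 in the LT and -0.06 in the ST. In no gene were all the stressed cows of a muscle above all the limited stress cows.

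**Figure D1:**
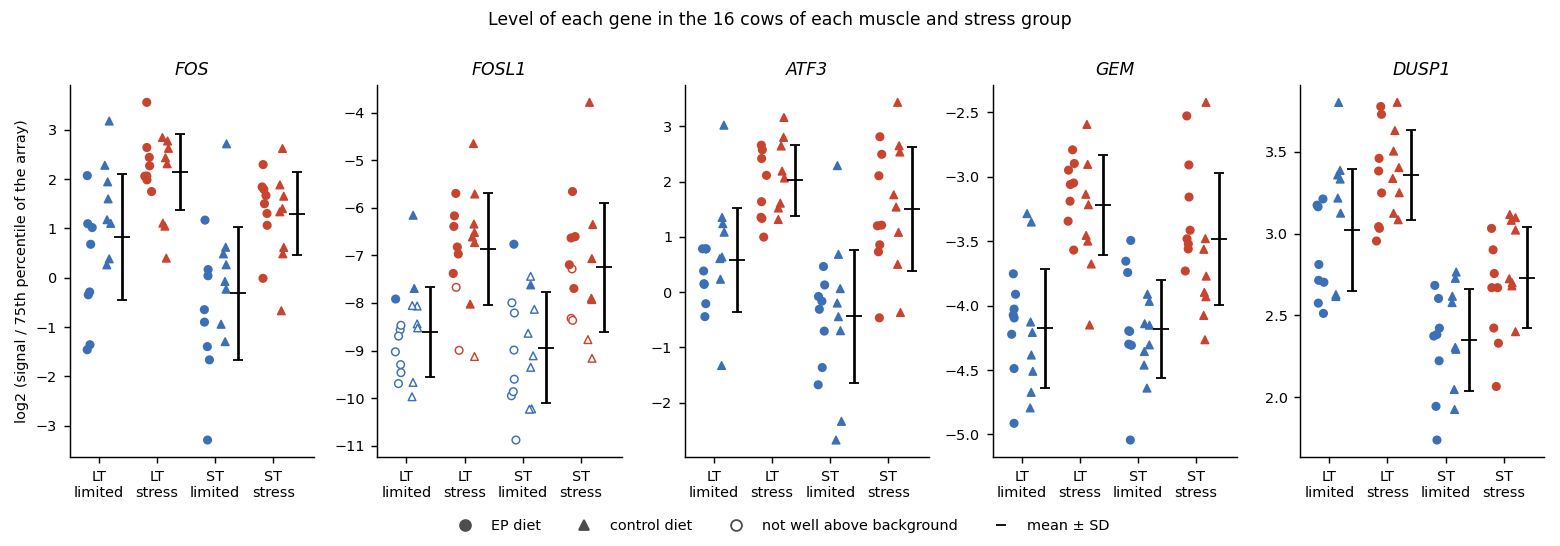
Level of each gene (log2 of the signal over the 75th percentile of its array; each panel has its own axis) in the 16 cows of each muscle and stress group, with the mean ± SD beside the points. Circles are cows on the EP diet, triangles cows on the control diet, and open symbols arrays where the probe was not well above background. The mean of the stressed cows was higher in both muscles for all 5 genes, the groups overlapped, and *FOSL1* was the only gene with open symbols.

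*FOS*, the founding member of the AP-1 family, had levels in the LT from -1.46 to 3.18 with a median of 1.06 in the limited stress cows, and from 0.40 to 3.56 with a median of 2.29 in the stressed cows. The ranges overlapped over most of their length, and 14 of the 16 stressed cows exceeded the limited stress median. The log2 fold change (stress / limited stress) in the LT was 1.31 (SE 0.327, n = 16 per group, limma adjusted p = 0.0182). In the ST, *FOS* ranged from -3.29 to 2.72 with a median of -0.15 in the limited stress cows and from -0.67 to 2.62 with a median of 1.45 in the stressed cows. No stressed cow exceeded the highest limited stress cow there, but 15 of 16 lay above the limited stress median. With stress it was higher there by 1.61 on the log2 scale (SE 0.373, limma adjusted p = 0.0118).

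*FOSL1*, which encodes the AP-1 subunit FRA-1, was measured near background. It was well above background on 3 of 16 arrays of limited stress cows and 13 of 16 of stressed cows in the LT, and on 2 of 16 and 11 of 16 in the ST. Its level in the LT ranged from -9.97 to -6.16 with a median of -8.54 with limited stress and from -9.13 to -4.65 with a median of -6.67 with stress. It was higher with stress by 1.74 on the log2 scale (SE 0.365, limma adjusted p = 0.00337). In the ST it ranged from -10.88 to -6.77 with a median of -9.05 in 16 limited stress cows and from -9.16 to -3.79 with a median of -7.28 in 15 stressed cows, since the spot of 1 stressed cow was set aside as uneven. The log2 difference there was 1.69 (SE 0.450, limma adjusted p = 0.0369). The size of this change depended on the background correction, since with a normexp correction that adds 50 units to every spot it came to 0.39 in the LT (adjusted p = 0.0277) and 0.36 in the ST (adjusted p = 0.211).

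*ATF3*, the stress-inducible factor, ranged in the LT from -1.33 to 3.02 with a median of 0.62 with limited stress and from 0.995 to 3.16 with a median of 2.09 with stress. All 16 stressed cows exceeded the limited stress median, and 12 of the 16 limited stress cows lay below every stressed cow. This was a log2 fold change of 1.45 (SE 0.272, limma adjusted p = 8.43e-04). In the ST, *ATF3* ranged from -2.68 to 2.29 with a median of -0.26 with limited stress and from -0.47 to 3.43 with a median of 1.37 with stress. There, 14 of 16 stressed cows were above the limited stress median and 5 were above every limited stress cow. The log2 fold change of 1.95 (SE 0.407, limma adjusted p = 0.00498) was the largest of the 5 genes in either muscle.

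*GEM*, the inhibitor of calcium channels, had the smallest adjusted p of the 5 genes in the LT. Its level there ranged from -4.91 to -3.29 with a median of -4.17 with limited stress and from -4.15 to -2.59 with a median of -3.16 with stress. Of the 16 stressed cows, 10 lay above every limited stress cow, and the log2 fold change was 0.96 (SE 0.149, limma adjusted p = 6.07e-05). In the ST it ranged from -5.04 to -3.49 with a median of -4.20 and from -4.27 to -2.42 with a median of -3.54, in the same order. Of the stressed cows, 15 of 16 were above the limited stress median, and the log2 fold change was 0.70 (SE 0.152, limma adjusted p = 0.00741).

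*DUSP1*, the MAP kinase phosphatase, moved least. In the LT it ranged from 2.51 to 3.80 with a median of 3.14 with limited stress and from 2.95 to 3.80 with a median of 3.36 with stress. The highest cows of both groups had nearly the same level, and the groups differed mainly at their lower ends. Its log2 fold change was 0.34 (SE 0.110, limma adjusted p = 0.0994), close to the threshold. In the ST it ranged from 1.74 to 2.76 with a median of 2.38 and from 2.07 to 3.12 with a median of 2.71. This was a log2 fold change of 0.38 (SE 0.106, limma adjusted p = 0.0496).

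Within each slide, the mean of the stressed cows lay above that of the limited stress cows on 4 of 4 LT slides and 5 of 5 ST slides for *FOS*, *ATF3* and *GEM*, and on 3 of 4 and 4 of 5 for *DUSP1*. *FOSL1* had the same counts as *FOS*. It had entered the test only through the stressed cows, and so its counts and calls by slide add no support. The differences within slides spanned 0.69 to 1.89 for *FOS* and 1.07 to 1.56 for *ATF3* in the LT, and 0.46 to 2.58 and 0.73 to 2.80 in the ST. In the ST, 1 slide held 1 stressed cow, which gave 0.46 and 0.73, and another held 1 limited stress cow, which gave 2.80. That limited stress cow was on the EP diet, and 5 of the 6 stressed cows of its slide were on the control diet. A slide block left all 5 genes past the threshold in the LT, but in the ST only *FOS* (1.73, adjusted p = 0.0467) and *ATF3* (2.17, adjusted p = 0.0119) did, while *GEM* (0.61, adjusted p = 0.146), *FOSL1* (1.56, adjusted p = 0.225) and *DUSP1* (0.43, adjusted p = 0.139) did not. Without the ST slide that held 6 stressed cows, 4 of the 5 genes were past the threshold in the ST, the exception being *FOSL1* (1.55, adjusted p = 0.143). *DUSP1* in the LT lost its call with 4 other settings, among them the control feature median as the scale (0.16, adjusted p = 0.585).

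A marker listed for satellite cells, the stem cells of muscle, fell with stress in the LT. Of 5 tested satellite cell markers, *MYOD1*, a factor of myogenic cells, fell in the LT by 0.69 on the log2 scale (adjusted p = 0.0261) and had a value of -0.61 in the ST (adjusted p = 0.179), and the other 4 did not pass. The summed level of the 5 ranged from 2.07 to 3.08 with limited stress and from 0.79 to 2.63 with stress in the LT, and from 2.04 to 3.06 and from 0.19 to 2.89 in the ST. The sum adds signals before the log2 step. The median level of *MYOD1* was 1.98, next to -0.07 for *CDH15* and -7.53 to -2.37 for the others, so the sum follows mostly *MYOD1*. It is thus not a separate reading of the cells. *PAX7*, also on the list, was well above background on 7 of the 64 arrays and was not tested. The part of satellite cells in the changes of the 5 genes was not tested.

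The custom probe sets, matched to 4 of the genes by shared bases alone, gave further probes on the same arrays. The *GEM* set, with 24 shared bases, is under the 25 bases set for naming a custom set. In the *FOS* set, 1 probe holds all 60 bases of the named probe, and so it is not a separate reading. All 5 probes of the *FOS* set rose in both muscles, with log2 fold changes from 1.31 to 1.38 in the LT and from 1.61 to 1.65 in the ST. Of the *DUSP1* set, 3 of 5 probes passed the threshold in each muscle, and all 5 had values between 0.32 and 0.47. Of the *FOSL1* set, 2 of 5 probes could be tested in the LT and both rose (1.38 and 1.58), while in the ST 2 of 3 rose (1.16 and 1.79) and the third had a value of -0.07 (adjusted p = 0.883). The set with 24 bases in common with *GEM* rose with all 5 probes in the LT (0.53 to 0.94), whereas in the ST 1 of 5 passed (0.63, adjusted p = 0.0225) and the others had values from 0.17 to 0.39. The probe of that set that carries the 24 shared bases was the one that passed in the ST.

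**Figure D2:**
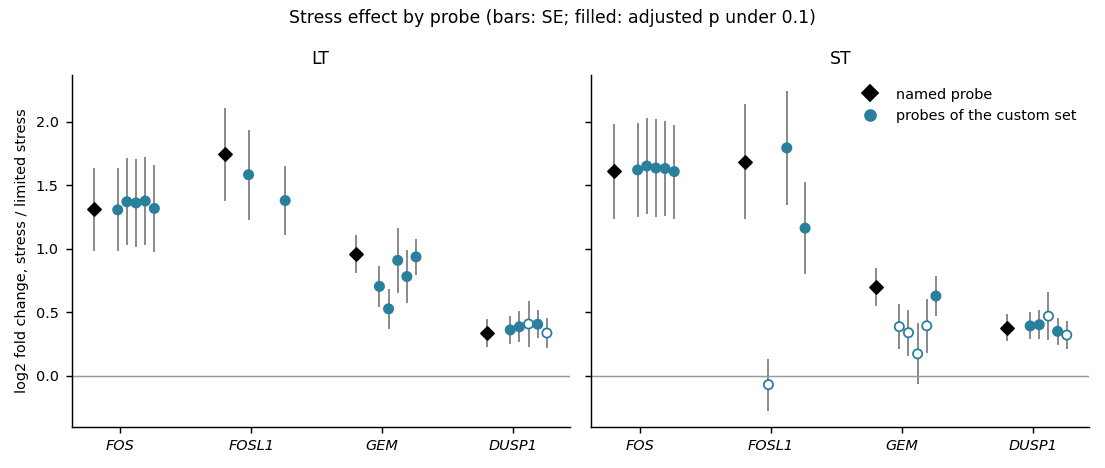
Log2 fold change (stress / limited stress) with its SE for the named probe of 4 genes (diamonds) and for the tested probes of the custom set that shares bases with it (circles), in the LT and the ST. Filled symbols have a limma adjusted p under 0.1. The 5 custom probes of *FOS* lay within 1.31 to 1.65, while those of *GEM* in the ST were spread from 0.17 to 0.63.

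The diets were then compared. No transcript of the array passed the threshold for the EP diet against the control diet (0% in the LT and 0% in the ST) or for a difference of the stress effect between the diets (0% in each muscle), and so none of the 5 genes did. At an unadjusted p under 0.05, limma gave 407 of the 10441 probes tested in the LT for the diet and 276 for its interaction with stress, and 531 and 491 of the 10305 probes in the ST. *FOS* had the smallest unadjusted p for the interaction among the 5 genes in both muscles.

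In the LT of cows on the EP diet, *FOS* ranged from -1.46 to 2.07 with a median of 0.20 with limited stress and from 1.75 to 3.56 with a median of 2.17 with stress. On the control diet, it ranged from 0.26 to 3.18 with a median of 1.39 with limited stress and from 0.40 to 2.84 with a median of 2.37 with stress. The medians of the stressed cows were thus close on both diets, and the limited stress cows were lower on the EP diet. With the EP diet *FOS* rose by 2.17 with stress (limma adjusted p = 0.00878), and with the control diet the value was 0.45 (adjusted p = 0.705). The difference between these, 1.72 (SE 0.654), had an unadjusted p of 0.0133 and an adjusted p of 0.99986 in limma. In the limited stress cows the EP diet was lower than the control diet by a log2 difference of -1.31 (unadjusted p = 0.00788, limma adjusted p = 0.99999), with a 95% interval from -2.26 to -0.37.

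The ST of the same cows had a like arrangement for *FOS*, without passing any test of diet. With limited stress the median was -0.77 for EP cows and 0.09 for control diet cows, and those with stress were 1.58 and 1.37. With the EP diet it rose by 2.25 with stress (limma adjusted p = 0.0298), and with the control diet the value was 0.97 (adjusted p = 0.343). The difference between them was 1.27 (SE 0.745, unadjusted p = 0.0977, limma adjusted p = 0.969). The muscles came from the same animals, and so they are not separate samples of the diets.

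For the other 4 genes, the stress effects of the diets differed by -0.23 to 0.28 on the log2 scale, with limma adjusted p from 0.972 to 0.99986. On the EP diet in the LT, where 0.835% of the transcripts rose, *FOS*, *ATF3* (1.59, adjusted p = 0.0281) and *GEM* (1.08, adjusted p = 0.00329) rose. *FOSL1* passed there too, but it had entered the test only through the stressed cows, and so its call adds no support. On the control diet in the LT, where 0.789% rose, *GEM* alone of the 5 did (0.84, adjusted p = 0.0425). In the ST, *FOS* and *GEM* (0.83, adjusted p = 0.0665) rose on the EP diet, against 0.565% of the transcripts, and *ATF3* rose on the control diet (2.06, adjusted p = 0.0722), against 0.919%. With 8 cows per group, the 95% intervals of the difference between the diets were wide, for example from -0.83 to 1.39 for *ATF3* in the LT.

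**Figure D3:**
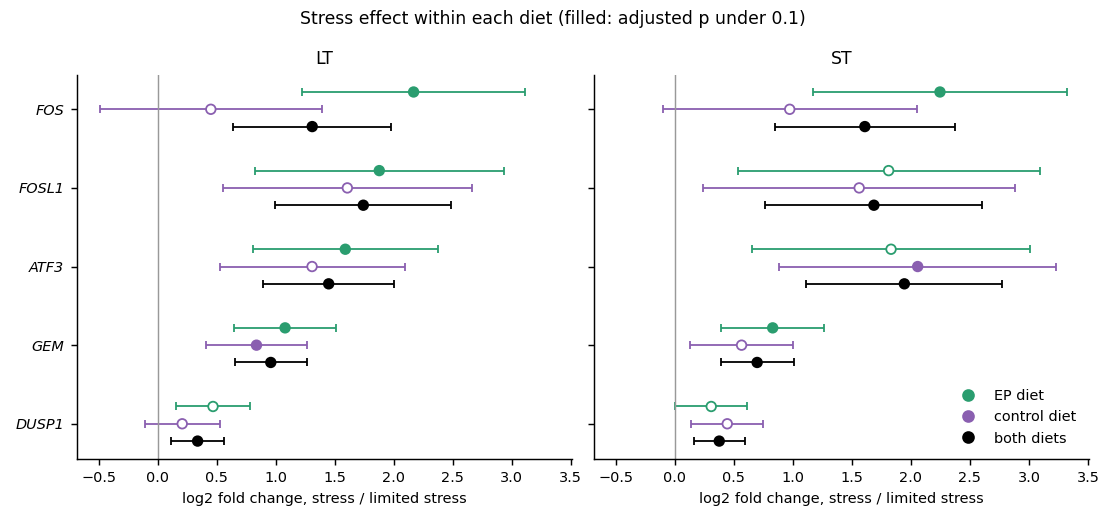
Log2 fold change (stress / limited stress) of the 5 genes on the EP diet, on the control diet and over both, in the LT and the ST, with 95% intervals of the limma fit. Filled symbols have an adjusted p under 0.1. *FOS* in the LT was at 2.17 with the EP diet and at 0.45 with the control diet, a difference that did not pass the adjusted test, while the effects on the diets differed by -0.23 to 0.28 for the other genes.

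The muscles of a cow were compared next. *FOS*, *ATF3* and *DUSP1* were lower in the ST than in the LT, where 21.9% of the 4230 transcripts tested in both muscles were lower in the ST. Each slide held arrays of 1 muscle, so the muscle and the slide cannot be told apart in these differences. *FOS* was lower in the ST in 28 of 32 cows, with a log2 difference (ST / LT) of -0.995 (SE 0.253, limma adjusted p = 7.54e-04). *ATF3* was lower in 27 of 32 cows, with a difference of -0.77 (SE 0.249, adjusted p = 0.00800). *DUSP1* was lower in all 32 of 32 cows, with a difference of -0.65 (SE 0.0769, adjusted p = 2.90e-10) that ranged from -1.44 to -0.03 over the cows. *FOSL1* was lower in 23 of 31 cows (-0.36, adjusted p = 0.313) and *GEM* in 17 of 32 (-0.13, adjusted p = 0.304), and neither passed. Of the muscle fibre markers tested in the same fit, 9 of 11 were higher and 1 lower in the ST, and their part in these differences was not tested.

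In limited stress cows alone, the same 3 genes were lower in the ST (*FOS* -1.15, adjusted p = 0.00866; *ATF3* -1.02, adjusted p = 0.0186; *DUSP1* -0.67, adjusted p = 1.88e-06), against 15.8% of the transcripts. In stressed cows, where 15.7% were lower, *FOS* (-0.84, adjusted p = 0.0582) and *DUSP1* (-0.63, adjusted p = 7.71e-06) were lower, and *ATF3* had a difference of -0.52 (adjusted p = 0.261). When the pairing of the 2 muscles of a cow was used, through a replicate block, *ATF3* (adjusted p = 0.0950) and *GEM* (-0.26, adjusted p = 0.0624) also passed in the stressed cows. The stress effect itself did not differ between the muscles for any transcript (0% called; 278 of 10254 probes at an unadjusted p under 0.05 in limma). For the 5 genes this difference (ST minus LT) lay between -0.26 for *GEM* and 0.50 for *ATF3*, with a limma adjusted p of 0.999 for each.

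The 4 groups of muscle and stress fell into 1 order for *FOS* and *ATF3*, the stressed LT highest, then the stressed ST, the limited stress LT and the limited stress ST. For *FOS*, the mean levels were 2.14 ± 0.779, 1.30 ± 0.845, 0.83 ± 1.28 and -0.31 ± 1.35 (SD, n = 16). The stressed ST and the limited stress LT, next to each other in this order, differed by less than the SD of either group for *FOS*, and so did those of *ATF3* (1.504 ± 1.13 against 0.57 ± 0.939). The means of *FOSL1* are not put in order, because most arrays of both limited stress groups did not have it well above background. *GEM* had nearly equal means in the limited stress LT and ST, at -4.18 in each. *DUSP1* had another order, with the limited stress LT (3.02 ± 0.374) above the stressed ST (2.73 ± 0.308).

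**Figure D4:**
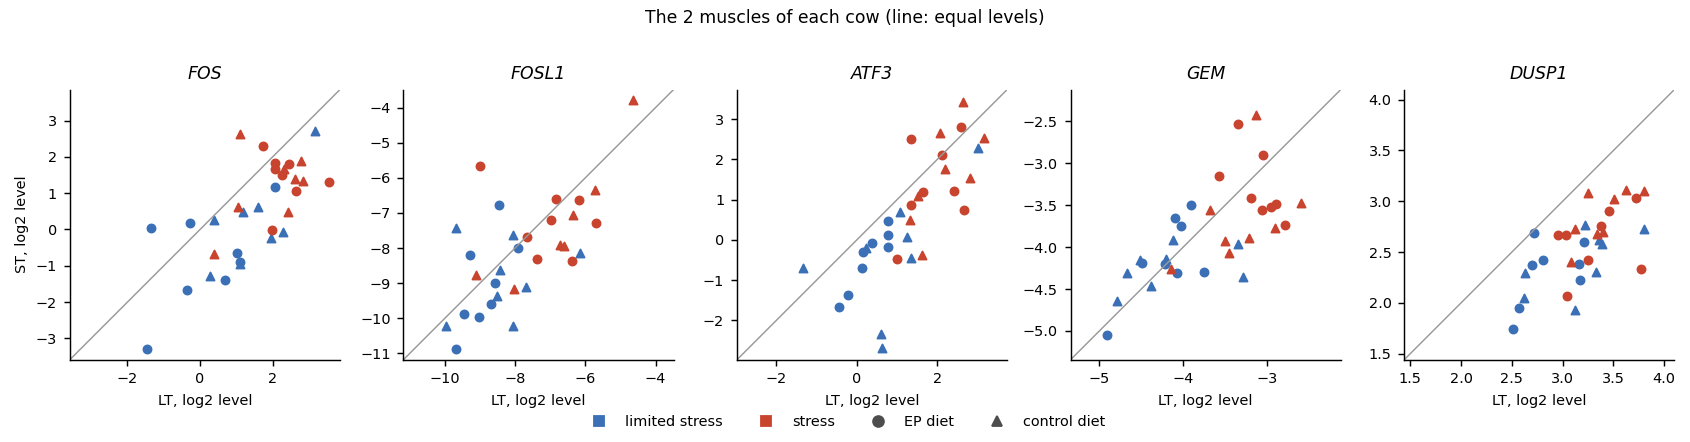
Level in the ST against the level in the LT of the same cow (log2 of the signal over the 75th percentile of its array) for the 5 genes, 32 cows each and 31 for *FOSL1*. Blue is limited stress, red is stress, circles are the EP diet, triangles the control diet, and the line marks equal levels. All the cows lay under the line for *DUSP1*, 28 of 32 for *FOS* and 27 of 32 for *ATF3*.

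Covariation between cows was computed within each stress group, because the groups differ in level. Over 10 pairs of genes, 2 muscles and 2 stress groups, 39 of the 40 correlations were positive, with a median Pearson r of 0.30 and a range from -0.47 to 0.79. After Benjamini-Hochberg adjustment over the 40, 6 had an adjusted p under 0.05 (permutation tests, 100000 resamples, two-sided). Pairs of other genes were not correlated in this way, so these counts have no background beside them. The signal that scales an array also enters the levels of both genes alike. The counts of positive values and of calls are thus a description, and were not shown to be particular to these genes. In the stressed ST, *FOS*, *FOSL1* and *ATF3* went together: *FOS* with *ATF3* had r = 0.79 (permutation p = 2.2e-04, adjusted p = 0.00880; Spearman coefficient 0.79, adjusted p = 0.0280), *FOSL1* with *ATF3* had r = 0.76 (permutation p = 0.0010, adjusted p = 0.0145; Spearman coefficient 0.75, adjusted p = 0.0352) and *FOS* with *FOSL1* had r = 0.73 (permutation p = 0.00238, adjusted p = 0.0194; Spearman coefficient 0.69, adjusted p = 0.0453). *FOSL1* and *ATF3* also went together in the stressed LT (r = 0.66, permutation p = 0.00518, adjusted p = 0.0345; Spearman coefficient 0.68, adjusted p = 0.0453).

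In the LT of the limited stress cows, other pairs stood out. *FOS* went with *DUSP1* (r = 0.74, permutation p = 0.00109, adjusted p = 0.0145; Spearman coefficient 0.71, adjusted p = 0.0352). *FOSL1* went with *GEM* (r = 0.70, permutation p = 0.00243, adjusted p = 0.0194; Spearman coefficient 0.61, adjusted p = 0.0779), although *FOSL1* was well above background on 3 of these 16 arrays. *FOS* with *GEM* had r = 0.63 (permutation p = 0.00917, adjusted p = 0.0524; Spearman coefficient 0.54, adjusted p = 0.133). *ATF3* had no correlation with *GEM* or *DUSP1* above 0.32 in any of the 4 groups, but with the control features as the scale r in the stressed LT was 0.61 with *GEM* (permutation test, adjusted p = 0.0374) and 0.65 with *DUSP1* (adjusted p = 0.0264). That scale is near background and enters the levels of both genes of an array alike, so these values add no support. Whether a correlation differed between the stress groups or between the muscles was not tested.

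The 6 relations were also read within slides and in other settings. Within slides of 6 or more arrays, with the mean of each stress group taken off, *FOS* and *DUSP1* in the LT had r from 0.59 to 0.81 on the 4 slides, and *FOSL1* and *ATF3* had r from 0.19 to 0.69 on the 4 LT slides and from 0.17 to 0.79 on the 3 ST slides. *FOS* and *ATF3* had r from 0.14 to 0.83 on the 3 ST slides, and *FOS* and *FOSL1* from 0.32 to 0.91. *FOSL1* and *GEM* in the LT ranged from -0.04 to 0.86. Without the 2 cows farthest from the median of the first gene, r was 0.78 for *FOS* and *ATF3* in the stressed ST (adjusted p = 0.0396), 0.74 for *FOS* and *FOSL1* there (adjusted p = 0.0652), 0.65 for *FOSL1* and *ATF3* there (adjusted p = 0.0981) and 0.62 in the LT (adjusted p = 0.0981), 0.68 for *FOS* and *DUSP1* (adjusted p = 0.0967) and 0.50 for *FOSL1* and *GEM* (adjusted p = 0.254). Of the 6, *FOS* with *ATF3* in the stressed ST alone stayed under 0.05, with fewer cows and all 40 values adjusted again, although r of *FOS* with *FOSL1* was as large as before. With normexp and quantile values, *FOS* with *FOSL1* (r = 0.62, stressed ST), *FOSL1* with *ATF3* (0.57, stressed LT) and *FOSL1* with *GEM* (0.58) lost their calls. Each had an adjusted permutation p of 0.115. The others kept theirs in that setting, with r from 0.69 to 0.79. With the control features as the scale, *FOS* with *DUSP1* in the LT of limited stress cows lost its call (r = 0.47, adjusted p = 0.119), and the other 5 had r from 0.67 to 0.83 and kept theirs. The median of these features was near background, at 1.73 to 6.36 units over the arrays. It enters the levels of both genes of an array alike, so calls kept on this scale add no support.

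**Figure D5:**
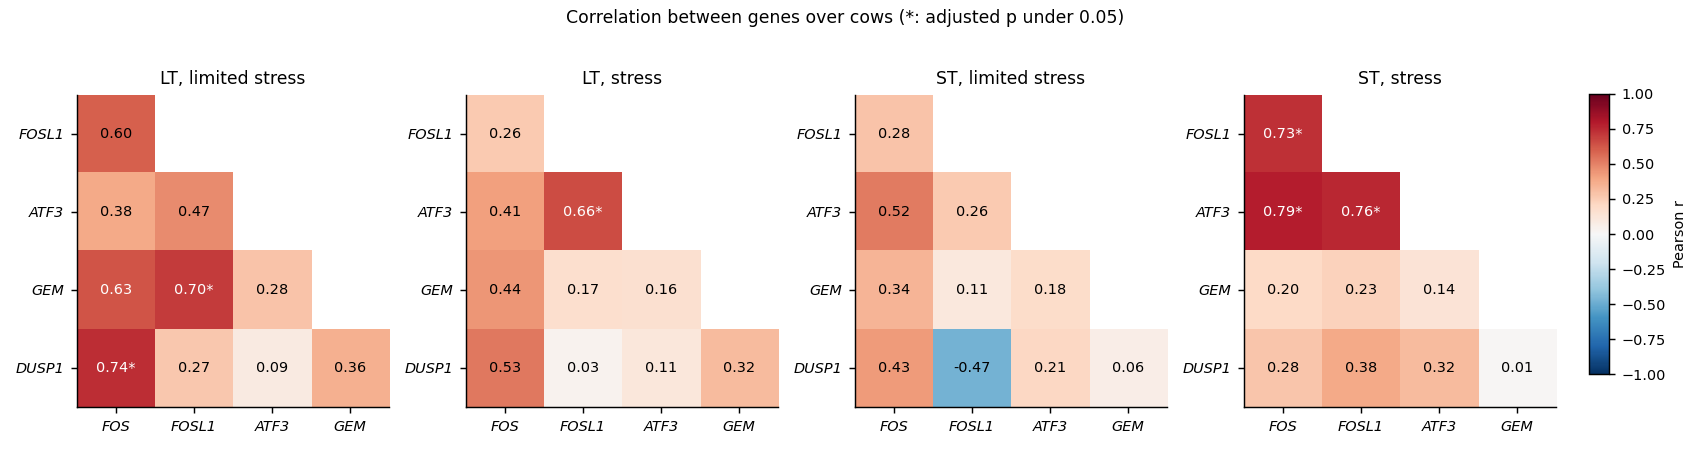
Pearson r between each pair of the 5 genes over the 16 cows of a muscle and stress group (15 for *FOSL1* in the stressed ST), with a star where the adjusted permutation p was under 0.05. The block of *FOS*, *FOSL1* and *ATF3* in the stressed ST holds r of 0.73 to 0.79, and the single negative value is that of *FOSL1* and *DUSP1* in the ST of limited stress cows (-0.47).

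Between the LT and the ST of the same cow, all 10 correlations (5 genes in 2 stress groups) were positive, with r from 0.26 to 0.68. Over all probes tested in both muscles, the correlation of the arrays of a cow was 0.41. A positive r is thus not particular to these genes. *FOS* in the limited stress cows was the one under 0.05 after adjustment over the 10 (r = 0.68, permutation p = 0.00391, adjusted p = 0.0391; Spearman coefficient 0.60, adjusted p = 0.0545). In the stressed cows, *FOS* had r = 0.29 (permutation p = 0.271, adjusted p = 0.301; Spearman coefficient 0.03). *ATF3* had r = 0.60 with limited stress and 0.57 with stress, both with an adjusted p of 0.0525, and *DUSP1* had 0.59 (adjusted p = 0.0525) and 0.48 (adjusted p = 0.0852). *GEM* had 0.49 and 0.26. Cows that shared a slide in the LT mostly shared one in the ST too. The 6 limited stress cows that shared 1 slide in each muscle had r = 0.89 for *FOS*, 0.69 for *DUSP1*, 0.56 for *FOSL1*, 0.20 for *GEM* and 0.19 for *ATF3*, and no other pair of slides held 6 cows of a stress group. With the means of slides and groups taken off, r for *FOS* in limited stress cows was 0.71 (adjusted p = 0.0201), and without the 2 farthest cows it was 0.70 (adjusted p = 0.0155), while with the means of the diets taken off it was 0.61 (adjusted p = 0.0602) and with the control features as the scale it was 0.47 (adjusted p = 0.158).

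Some cows had like ranks in both muscles and others did not. Cow316, with limited stress and the control diet, had the highest *FOS* and the highest *ATF3* of the 16 limited stress cows in both the LT (3.18 and 3.02) and the ST (2.72 and 2.29). Its *FOS* level in the ST was above that of all 16 stressed cows, and its other 3 levels lay within their range. Cow267, with limited stress and the EP diet, had the lowest *FOS*, *GEM* and *DUSP1* of its group in both muscles. Among the stressed cows, both of these on the control diet, cow265 had the lowest *FOS* in both muscles (0.40 in the LT and -0.67 in the ST), and cow321 had the highest *FOSL1* in both (-4.65 and -3.79). For *FOS*, the ranks of some stressed cows differed widely between the muscles. Cow321 had the highest *FOS* of the 16 in the ST (2.62) but ranked 14 in the LT (1.11), and cow251, on the EP diet, had the highest in the LT (3.56) but ranked 11 in the ST (1.30). The cows were picked here for their ranks, and so these values are a description.

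Genes of the array whose levels went closely with each of the 5 over the 64 arrays, after the mean of each of the 8 groups was taken off, are given as a description among 1953 named genes. The arrays share cows and slides, and so the 64 points are not independent. For *FOS* these were *JUNB* (r = 0.72), which encodes an AP-1 partner, and *EGR1* (0.60), another immediate early factor. *JUNB* and *EGR1* did not pass the test of stress in either muscle, with log2 fold changes of 0.04 and 0.07 in the LT (adjusted p = 0.943 and 0.934) and of 0.56 and 0.80 in the ST (adjusted p = 0.366 and 0.286). For *FOSL1* they were *IFRD1* (0.69) and *ADAMTS4* (0.61), and for *ATF3* they were *IFRD1* (0.57), *ETS2* (0.56) and *ADAMTS4* (0.53). For *DUSP1* they were *DNAJB6* (0.46), *JUN* (0.45) and *PIP4K2A* (0.40), the lowest values of the 5.

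*GEM* had other neighbours, namely *VIM* (0.76), the intermediate filament of mesenchymal cells, *TGFB3* (0.75) and the tubulin *TUBB6* (0.69). The summed level of 5 fibroblast markers (*COL1A1*, *COL1A2*, *COL3A1*, *DCN* and *LUM*) had r = 0.61 with *GEM* in the same 64 arrays, and 0.17 with *FOS*, 0.12 with *ATF3*, 0.11 with *DUSP1* and 0.10 with *FOSL1*. The medians of this summed level were 2.23 and 2.29 in the LT and 2.38 and 2.33 in the ST, with limited stress and with stress, and 0 of the 5 tested markers passed the test of stress. Its range was from 0.96 to 3.27 and from 1.37 to 2.99 in the LT, and from 1.81 to 3.45 and from 1.22 to 4.06 in the ST. The sixth fibroblast marker named by the array, *PDGFRA*, was well above background on 5 arrays. In a whole muscle, fewer cells of a type and less RNA per cell cannot be told apart.

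Genes around the 5 were counted from lists, by the gene names of the array. The custom sets carry no gene name, and so they were not counted. Of the AP-1 partners and related factors, the array named 4 of 29 (*JUN*, *JUNB*, *ATF7* and *CREB1*). None of these rose, against 2.20% of all tested transcripts in the LT and 1.48% in the ST. With only 4 genes at such shares, this count says little about the list. *ATF7* fell in the ST by 0.27 on the log2 scale (adjusted p = 0.0781), and the values of *JUN* were 0.03 (LT) and 0.11 (ST). The median of these 4 was -0.02 in the LT and -0.04 in the ST, next to -0.05 and -0.06 over all transcripts. Of 11 tested kinases and factors upstream of *FOS*, none passed in either direction in either muscle, with medians of -0.09 and -0.16. Over all tested transcripts, 3.73% passed in either direction in the LT and 3.6% in the ST. Of the other dual-specificity phosphatases, 3 were tested, and *DUSP23* fell by 0.22 in the LT (adjusted p = 0.0961). Of the GEM family and calcium channel subunits, 4 were tested and none passed.

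The lists were chosen with earlier results of these data known. The paper had named *IFRD1*, *ETS2*, *GADD45A*, *PDK4* and *CEBPD* as stress genes of both muscles, so the counts below are a description and add no support. Of the other immediate early genes, 7 were tested, of which the LT had 3 that rose and the ST had 2. Over all tested transcripts, 2.20% rose in the LT and 1.48% in the ST. *IFRD1*, a regulator of muscle differentiation, rose by 1.41 and 1.25 (adjusted p = 7.76e-07 and 1.16e-05), *ETS2*, a transcription factor that MAP kinases phosphorylate, by 1.15 and 1.23 (adjusted p = 1.34e-05 and 3.61e-07), and *BTG1*, an antiproliferative gene, by 0.72 in the LT (adjusted p = 0.0136). The median of this list was 0.45 in the LT and 0.38 in the ST. Of 13 tested genes known as targets of AP-1 or ATF3, 2 were higher in each muscle and none fell, with medians of 0.07 and 0.06. *GADD45A*, a growth arrest gene, rose in both (1.16 and 1.20), *THBS1*, which encodes thrombospondin, rose in the LT (0.83), and *PLAUR*, the urokinase receptor, rose in the ST (1.17, adjusted p = 0.0118). Of 4 tested genes of the glucocorticoid response, 2 were higher in each muscle, with medians of 1.13 and 0.88 over the 4, namely *PDK4*, which restrains glucose oxidation, at 3.39 and 3.36, and *CEBPD*, a transcription factor, at 1.68 and 1.36.

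Markers of other cells were also read in each muscle. None of the tested markers of muscle fibres, fat, leukocytes, endothelium or nerve passed the test of stress in either muscle. Of 3 erythrocyte genes that the array names, *HBB* was well above background on 20 of 64 arrays, *ALAS2* on 2 and *SLC4A1* on 0.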

How the data were processed

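The authors hybridised Cy3-labelled RNA of each muscle to single-colour Agilent arrays, 64 in all, and read them with Feature Extraction 10.1.1.1. The software had subtracted the background from the deposited intensities, per the file headers, and the deposited table of the series held the same intensities with no log2 step. The methods scale each array to its control probes, but the control features of these files had a median signal of 3.24 units, near background, and so each array was scaled to the 75th percentile of its other spots and the control features were kept as an alternative.

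Spots marked as uneven or as outliers were left out, spots of a probe were averaged on the log2 scale, and a probe was tested in a muscle if 11 or more of its 32 arrays had it well above background. Groups of stress and diet were fitted per muscle, and 8 groups over 64 arrays, without the cow, for the muscles, with limma 3.58.1 in R 4.3.3. Benjamini-Hochberg adjustment covered all tested probes. A call for a transcript needed 80% or more of its tested probes below an adjusted p of 0.1, in 1 direction. The slaughter period of the methods' model is not in the labels and was left out. The number of arrays limits the precision. On simulated data for the stress effect in the LT (10441 probes), 93% of 200 probes changed by 1 on the log2 scale were recovered, and 9.71% of the calls were false.

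Correlations were tested with 100000 permutations in Python 3.11.15. The 5 genes, the lists and the comparisons were chosen with earlier results of these data known. The genes named were the 5 members, up to 3 genes of each list called for stress in either muscle, the 3 genes most correlated with each member (1 gene of these and of 2 lists is not reported here), and custom sets sharing at least 25 bases with a member's probe. *JUN*, *JUNB*, *EGR1*, the *GEM* set with 24 shared bases, the cell markers and the single cows were named after their values were seen. The muscles of a cow are paired by the cow number of the labels, and the correlation of the arrays of a cow over all tested probes was 0.41. Alternatives were other scalings, no filter, and slide, scan day or cow as a block.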

Additional observations from a re-analysis of the deposited data

Results flagged for a closer look

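Among the 40 groups of 8 cows (5 genes, 2 muscles, 2 stress groups and 2 diets), 1 held a cow far from the others by Dixon's criterion, which chance alone meets in about 1 group of 20. It was cow260, stressed and on the control diet, whose *GEM* level in the ST was -2.42, where the next highest cow of its group had -3.48. The gap was 57.4% of the range of the group. None of the 5 genes had a stress effect that differed between the diets or between the muscles after adjustment.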

How the results depend on the processing

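The log2 fold change of the 5 genes with stress stayed above 0 in all 85 values from the other settings. The number of the 5 genes past the threshold for stress in the ST was 2 under a slide block and 3 under a scan day block, against 5. In the LT it stayed between 4 and 5. These counts and those within each diet include *FOSL1* where it passed, although it entered the test only through the stressed cows. On the EP diet the median of the control features gave 1 in the LT (4 as reported) and 1 in the ST (2 as reported). On the control diet, *GEM* in the LT was lost (0) with the control features and with no scaling, and *ATF3* in the ST was lost (0) with the control features, the normexp and quantile values, the slide block, the scan day block and without the ST slide of 6 stressed cows. The muscle difference in stressed cows covered 1 gene with the control features and 1 under a random slide block, against 2, and 4 with the cow as a replicate block. That replicate block changed no other count. A fixed slide or scan day block could not be fitted to the muscle difference, as each slide held 1 muscle. Of 40 correlations between genes, 14 passed with the control features and 1 without the 2 farthest cows, against 6. Of 10 between the muscles, 0 passed with the control features, 0 with diet means taken off, 5 with slide and group means taken off and 4 without the 2 farthest cows, against 1. The cause of these changes was not tested. Over all transcripts, 95 rose and 66 fell with stress in the LT and 63 and 90 in the ST. The control features gave 26 and 9, and 33 and 5, and no scaling 83 and 31, and 79 and 8. The cow block gave 111 and 131 in the LT. The ST had 64 and 40 with normexp, 37 and 15 under the slide block, 41 and 30 under the scan day block and 43 and 56 without its slide of 6 stressed cows. The control features moved the median of all transcripts with stress to -0.23 in the LT and 0.03 in the ST. *FOSL1*, near background, is the least certain of the 5. The random slide block and the left-out slide were chosen after seeing the data.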
